A study of Nicotiana tabacum with 54 samples.

Results

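Basma is 1 of 6 tobacco (Nicotiana tabacum) materials whose leaf, stalk and root RNA was sequenced after topping, and its 9 libraries, 3 in each tissue, were compared here with the 15 libraries of the other 5 materials in each tissue. The 9 libraries were taken from the 54 of the series by the material in their names, without use of any measured value. The other materials were Hongda, H×B, Va116, V×G88 and GDH88, written HxB and VxG88 in the plots. The names H×B and V×G88 carry the sign of a cross, and their letters match Hongda and Basma, and Va116 and GDH88. Neither the labels nor the study's methods state the parents. By its name H×B may thus be a cross with Basma as a parent. The mean of the other materials would then hold a relative of Basma. All plants had been topped, and per the study's methods the transcriptome tissues were collected 1 week later. The methods say that the transcriptome data came from earlier work of the same group. They give 3 plants per replicate for a sampling timed from transplanting, and do not state whether this covers the libraries used here. The methods describe root, stalk and leaf as sampled from the plants of a replicate, so the tissues of a material may come from the same plants. No untopped plants are among these samples, so the values describe differences between materials and not a response to topping. The study's own figure calls the material labelled Basma GDH11, and the label name is kept here. Each tissue was deposited as 1 table of FPKM (fragments scaled by transcript length and by the library's mapped fragments) for 69500 genes.

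Topping is the removal of the flower head, which ends apical dominance and turns the plant towards leaf growth and the synthesis of nicotine, made in the root and carried to the leaf. Cultivated tobacco is an allotetraploid, so many genes exist as near-identical copies from both parental genomes, and reads can be split between such copies. Varieties can differ in the level of a transcript because the copy they carry is absent, truncated or differently regulated, and RNA levels alone do not tell these apart. The glutathione S-transferases (GSTs), the family the study was about, join glutathione to reactive compounds and help to detoxify herbicides and the products of oxidative stress.

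The files do not pair the gene identifiers with names, and only the 59 NtGST genes were named in the study's supplement. Other genes are therefore given by identifier, in which the digits before the g name the assembly scaffold that holds the gene. Marker genes of leaf or root could not be tied to identifiers, but each of the 54 libraries correlated best with another library of its own tissue. Values summed to between 768375 and 832327 per library, and Basma libraries had between 30198 and 36062 genes at 1 FPKM or more, against 30999 to 37004 in the other materials. The highest Basma figure, 36062, belonged to root column 1.

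Before the comparison each library was set against its label. The 200 genes that differed most among materials in the other 2 tissues were used, and the library's profile over them was correlated with the mean profile of each material there. By this measure 49 of the 54 libraries were most like their own material. The correlation with the own material was under 0.5 in 6 libraries, where it lay between -0.44 and 0.39, and at least 0.61 in the other 48. Of those 6, 2 were labelled Basma. The stalk library labelled Basma 1 had r = 0.39 with Basma and was correlated at 0.87 with the stalk library labelled GDH88 1 over the same genes. The root library labelled Basma 1 had r = 0.24 with Basma and 0.29 with H×B. The other 4 were labelled V×G88 2 in leaf, V×G88 1 and GDH88 1 in stalk, and GDH88 2 in root, of which the leaf V×G88 2 and stalk GDH88 1 libraries were most like Basma. The other 7 Basma libraries, with all 3 of leaf among them, had r between 0.81 and 0.92. The threshold was set after these values were seen, and results are given below with all libraries and without the 6. Leaving out libraries that disagree with the other tissues raises the agreement among tissues in part by construction.

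**Figure D1:**
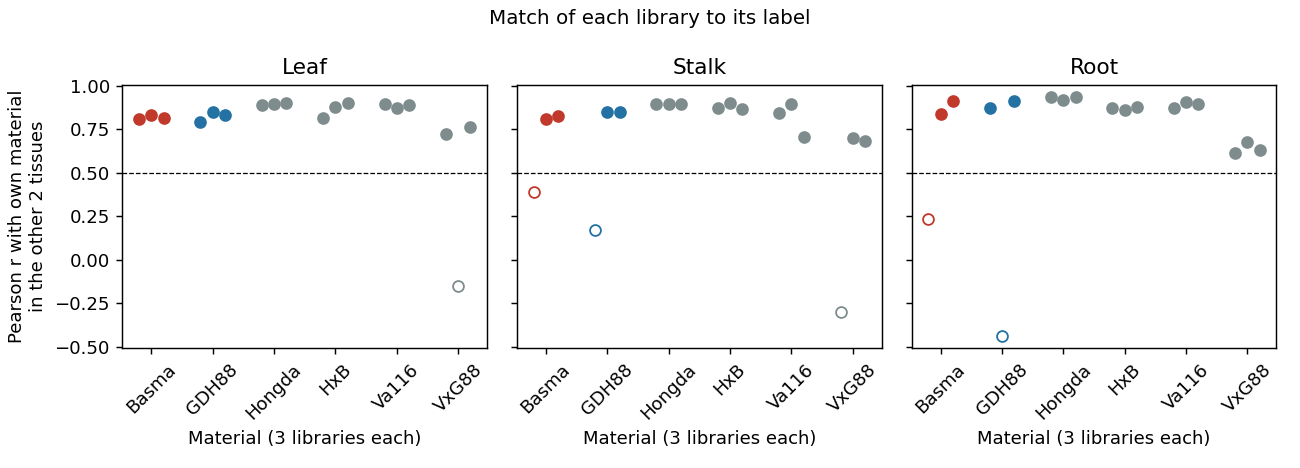
Pearson correlation of each of the 54 libraries with its own material, taken over the 200 genes that differed most among materials in the other 2 tissues. Points are libraries in column order 1 to 3 from the left, open circles are the 6 libraries under 0.5 (dashed line), Basma is red and GDH88 blue. The open Basma circles are stalk 1 and root 1.

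The first question was how many genes differed between Basma and the mean of the other 5 materials in each tissue, on log2(FPKM + 1), for genes that reached 1 FPKM in 3 or more of the tissue's 18 libraries. A gene was called at an adjusted p under 0.05 (limma, Benjamini-Hochberg over all genes tested in the tissue). In leaf 165 of 35971 genes were called, 0.459% of those tested, with 67 higher and 98 lower in Basma. The median difference was 1.39 on the log2 scale among the higher genes and -1.54 among the lower ones, against -0.08 over all genes tested, and 132 of the 165 differed by at least 1. In 37 of the 98 lower genes all 3 Basma libraries lay below all 15 others, against 102 genes, 0.284%, among all tested. In 7 of the 67 higher genes all 3 lay above, against 14 genes, 0.0389%, among all tested. The calls were made on the same libraries, so larger shares among called genes were largely set in advance. The lower genes were often close to silent, since the median of their mean FPKM was 0.21 in Basma and 5.72 in the other materials. For the higher genes the same medians were 10.7 and 4.18. Without the library labelled V×G88 2 the count was 201, 0.559% of those tested. It fell to 95, 71 and 85 when Basma 1, 2 or 3 was left out, and to 29 when the 15 other libraries were treated as 1 group with no term for material.

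In stalk 47 of 35994 genes were called, 0.131% of those tested, with 38 higher and 9 lower in Basma. Their median differences were 1.61 and -1.75. Without the stalk libraries labelled Basma 1, V×G88 1 and GDH88 1 the count was 121, 0.336% of those tested, with 78 higher and 43 lower. The stalk count depended on single libraries. It was 13 without Basma 2 and 15 without Basma 3, 31 without Hongda 1, H×B 1 or H×B 2, and 83 without GDH88 1.

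In root 2 of 38399 genes were called, 0.00521% of those tested, and both were higher in Basma. A total of 540 genes, 1.41%, had an unadjusted p under 0.05. Without the root libraries labelled Basma 1 and GDH88 2 the count was 88, 0.229% of those tested, with 51 higher and 37 lower and median differences of 1.75 and -1.99. Leaving out Basma 1 alone gave 45 calls and GDH88 2 alone 31. Leaving out GDH88 3 gave 6, and leaving out any other library gave between 0 and 3. The root library labelled Basma 1 also stood with Hongda 1 and H×B 1 in the number of genes at 1 FPKM or more, 36062 against 37004 and 35845. The part of that difference in the root counts was not tested.

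The same contrast made for each other material in the same fits puts the Basma counts among theirs. In leaf 263 genes were called for Hongda, 262 for GDH88, 205 for H×B, 143 for Va116 and 14 for V×G88, so Basma with 165 was in the middle. In stalk there were 120 for Hongda, 54 for GDH88, 47 for Va116 and for Basma, 26 for H×B and 5 for V×G88, and without the 6 libraries 160, 150, 79, 121, 152 and 12 for Hongda, GDH88, Va116, Basma, H×B and V×G88. In root the counts ran from 0 for V×G88 to 100 for Hongda, and without the 6 libraries from 11 for V×G88 to 185 for GDH88, with Basma at 88. These contrasts share libraries, and the differences between their counts were not tested.

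Which genes differed the same way in all 3 tissues was the second question. With all libraries, limma called 0 of the 31280 genes tested in all 3 tissues in each of them (0%), since root gave 2 calls. At an unadjusted p under 0.05 in each tissue 77 genes were higher and 65 lower. Leaf and stalk shared 20 called genes, 12.1% of the leaf calls and 42.6% of the stalk calls, and all 20 differed in the same direction. Without the 6 libraries 43 genes, 0.137% of 31280, were called in every tissue with 1 sign, 23 higher and 20 lower, and 0 were called with opposite signs. Leaving out only the Basma libraries among the 6 gave 14. Of the 43, 36 had been called in leaf with all libraries, where no Basma library was in doubt: 20 of the 23 higher and 16 of the 20 lower. The 2 leaf fits differ by 1 library only, and the 43 had to be called in 1 of them. This overlap was therefore largely set in advance.

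The differences found in leaf were also looked up in the other tissues without regard to calls there, which does not depend on a threshold in stalk or root. Of the 165 genes called in leaf, 147 were tested in stalk and 141 of them, 95.9%, had the same direction there. In root 132 of 141, 93.6%, had the same direction. Over all genes tested in both tissues the shares were 54.8% for leaf and stalk and 50.6% for leaf and root. The tissues are separate libraries but may come from the same plants, so the agreement is not shown over independent plants. The median size of the difference, signed by the direction in leaf, was 1.49 over the 165 genes in leaf, 1.01 in stalk and 0.88 in root.

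**Figure D2:**
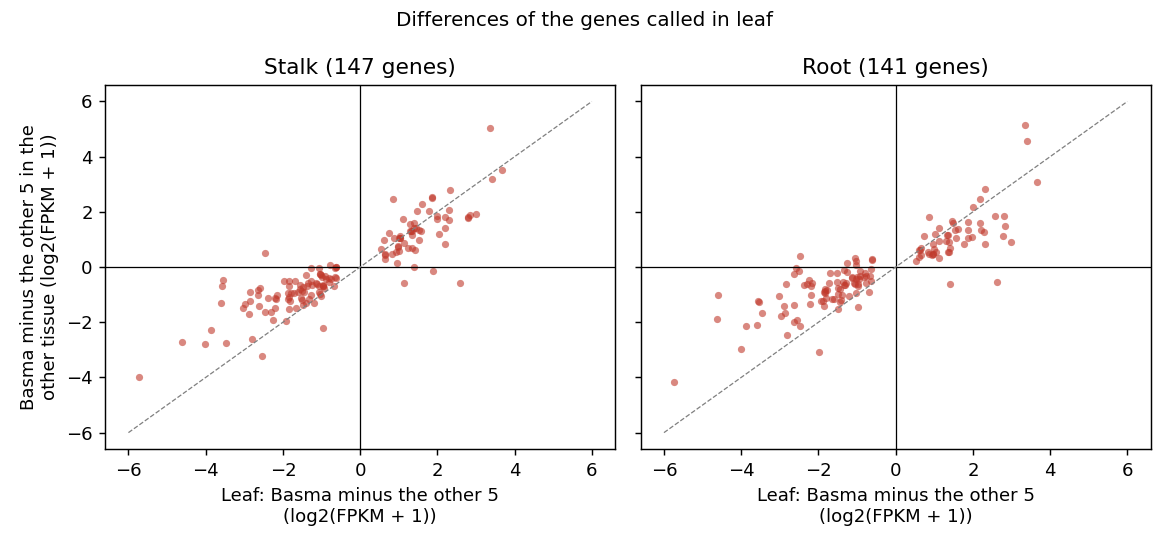
Difference between Basma and the mean of the other 5 materials on log2(FPKM + 1) in leaf (x axis) against that in stalk and in root (y axis), with all libraries, for the genes called in leaf that were tested in the second tissue. Each point is a gene and the dashed line marks equal differences. Same-direction genes number 141 of 147 in stalk and 132 of 141 in root.

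Single libraries were uneven in this. Each library was set against the mean of the tissue's 15 libraries of the other materials. Over the 147 genes the median signed difference was 1.36 in stalk Basma 2 and 1.29 in Basma 3. It was 0.36 in the library labelled Basma 1. Over the 141 genes in root it was 1.27 in Basma 2, 1.18 in Basma 3 and 0.18 in the library labelled Basma 1. In the libraries of the other materials it lay between -0.42 and 0.32 in stalk, highest in GDH88 1, and between -0.44 and 0.38 in root, so the stalk Basma 1 lay just above that range and the root Basma 1 within it. Thus both libraries labelled Basma 1 were nearer to the range of the other materials than to the other Basma libraries. A library of the other materials is itself part of the mean it was set against, and a Basma library is not. The genes for this comparison were chosen in leaf alone. Without the 6 libraries the medians over the leaf genes were 1.33 in stalk and 1.19 in root.

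**Figure D3:**
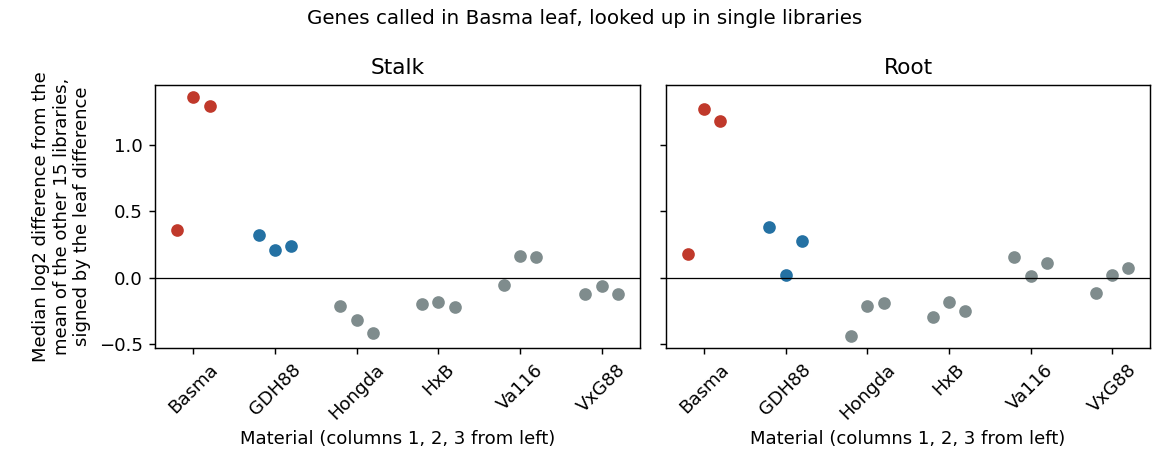
Median log2 difference of each stalk and root library from the mean of the 15 libraries of the other materials, over the genes called in leaf, with the sign turned so that a positive value has the direction of Basma in leaf. Points are libraries in column order 1 to 3 from the left. Basma 2 and 3 lie at 1.18 or above in both tissues, and Basma 1 at 0.36 in stalk and 0.18 in root.

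The gene with the largest mean drop among the 43 was Nitab4.5_0006376g0030. In leaf it was at 0, 0.12 and 0.07 FPKM in the 3 Basma libraries, while the other 15 libraries ran from 41.87 to 70.66 with a median of 52.63. The groups did not overlap, and the difference was -5.74 ± 0.163 (SE, log2 scale, adjusted p = 5.82e-11, limma). In stalk it was at 0.09 and 0 FPKM in Basma 2 and 3 and at 61.11 in the library labelled Basma 1, inside the range of the others. In root the same was seen, with 0.12 and 0.17 FPKM in Basma 2 and 3 and 73.63 in the library labelled Basma 1. With all libraries the adjusted p of Nitab4.5_0006376g0030 was 0.115 in stalk and 0.216 in root. Without the 6 libraries the differences were -5.89 and -6.18, with adjusted p of 1.72e-07 and 6.62e-08. This transcript, abundant in all other materials, was thus close to absent in 7 Basma libraries and at the level of the other materials in 2.

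Nitab4.5_0010482g0010 showed the same arrangement at a lower level. In leaf it was at 0.14, 0.26 and 0.24 FPKM in Basma and between 12.93 and 29.56 in the others (difference -4.01 ± 0.186, adjusted p = 1.54e-08, limma). In stalk Basma 2 and 3 were at 0.39 and 0.05 FPKM and the library labelled Basma 1 at 29.87. In root they were at 0.02 and 0.13 FPKM and the library labelled Basma 1 at 15.43. Its adjusted p was 0.26 in stalk and 0.152 in root with all libraries, and 6.25e-06 and 2.98e-07 without the 6.

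The 2 genes with the largest mean rise among the 43 were high in GDH88 as well. Nitab4.5_0003151g0070 was at 22.76, 19.71 and 22.6 FPKM in Basma leaf and at 24.8, 22.78 and 17.57 in GDH88 leaf, while the other materials were at 0.06 or less except for 10.83 in the library labelled V×G88 2. In stalk it was at 53.78, 105.92 and 85.68 FPKM in Basma and at 47.47, 86.49 and 102.64 in GDH88, with the other 12 libraries at 0.07 or less. In root it was at 22.23, 144.18 and 69.2 FPKM in Basma and at 46.36 and 75 in GDH88 1 and 3, but listed at 0 in the library labelled GDH88 2. Basma and GDH88 overlapped in every tissue. Apart from the libraries labelled V×G88 2 in leaf and GDH88 2 in root, they stood apart from the rest. The difference of Basma from the mean of the 5 was 3.35 ± 0.494 in leaf (adjusted p = 0.0039, limma), 5.05 ± 0.2 in stalk (adjusted p = 7.64e-09) and 5.14 ± 0.851 in root (adjusted p = 0.1). For Nitab4.5_0003151g0070 the calls in leaf and stalk were lost, with adjusted p = 1, when the other 15 libraries were treated as 1 group, since GDH88 then adds to the spread.

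Nitab4.5_0000363g0030 had the same shape. In leaf it was at 17.19, 29.59 and 20.72 FPKM in Basma, 11.75, 30.25 and 13.7 in GDH88, 13.53 in the library labelled V×G88 2 and at most 0.06 elsewhere. In stalk it was at 10.97, 24.51 and 13.12 FPKM in Basma and 9.35, 17.35 and 20.31 in GDH88, with at most 0.08 elsewhere. In root it was at 9.93, 90.7 and 57.98 FPKM in Basma, 32.85 and 32.51 in GDH88 1 and 3, and 0.03 in the library labelled GDH88 2. Differences were 3.40 ± 0.557 in leaf (adjusted p = 0.00855, limma), 3.19 ± 0.212 in stalk (adjusted p = 3.58e-06) and 4.57 ± 0.772 in root (adjusted p = 0.104). The leaf call was lost when any Basma library was left out, with adjusted p of 0.0507, 0.117 and 0.0658 without Basma 1, 2 and 3.

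**Figure D4:**
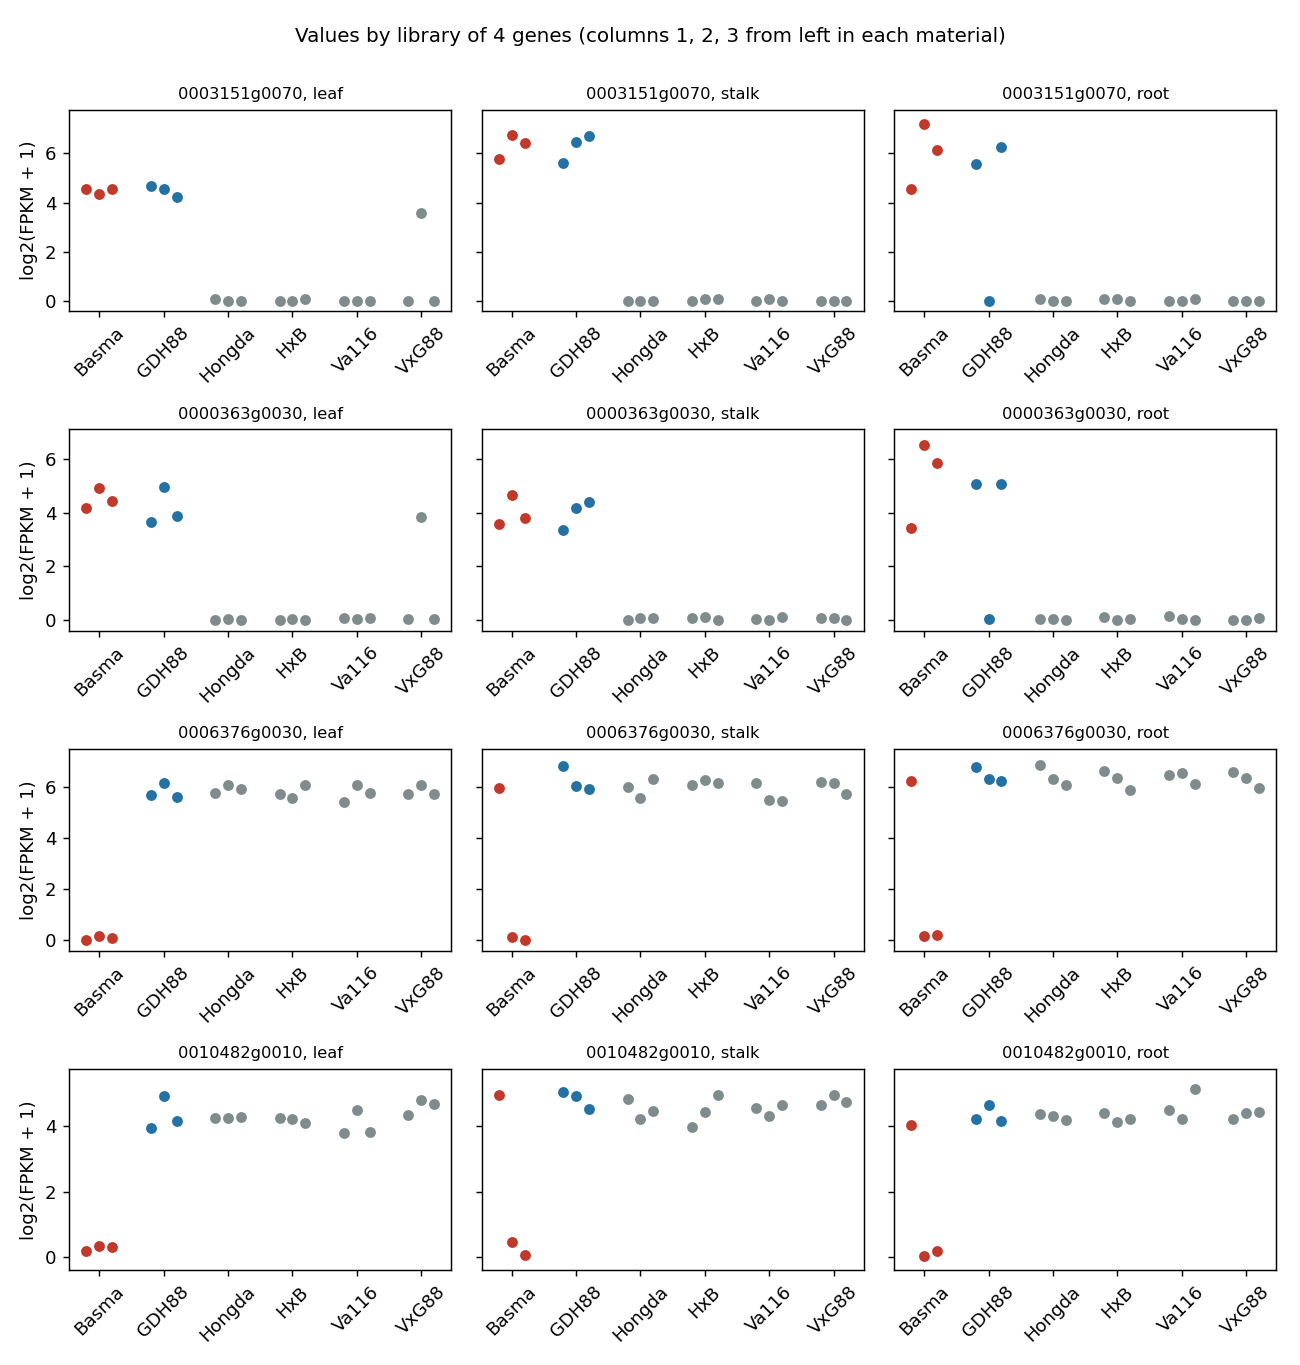
log2(FPKM + 1) in every library for the 2 higher and 2 lower genes with the largest mean difference among the 43 called in all 3 tissues without the 6 libraries, with rows for genes and columns for tissues. Points are libraries in column order 1 to 3 from the left, with Basma red and GDH88 blue. The upper 2 genes are high in Basma and GDH88 together, except in the root library labelled GDH88 2, and are raised in the leaf library labelled V×G88 2. The lower 2 are near 0 in Basma except in the stalk and root libraries labelled Basma 1.

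GDH88 was the material whose mean lay nearest to Basma in 68 of the 165 genes called in leaf (41.2%) and in 37 of the 47 called in stalk (78.7%). Over all genes tested GDH88 was nearest in 21.7% in leaf and 28.1% in stalk. Without the 6 libraries the shares among called genes were 46.3% in leaf, 49.6% in stalk and 52.3% in root, against 21.4%, 26.5% and 13.8% of all genes tested. Va116 came next in leaf at 27.9%, against 21.4% of all genes tested. Among the 67 genes higher in leaf, the range of Basma overlapped with that of GDH88 in 38. It overlapped with Va116 in 17, H×B in 14, V×G88 in 13 and Hongda in 5. Over all genes tested the share for GDH88 was 93%. Called genes were chosen for a Basma difference in the same libraries, so less overlap among them was largely set in advance. Among the 98 lower in leaf, Basma overlapped with GDH88 in 29 and with Va116 in 33. Over all genes tested, Va116 overlapped with Basma in 92.6%. In stalk, 8 of the 38 higher genes were at 1 FPKM or more in all 6 Basma and GDH88 libraries and under 0.1 in the other 12. The 8 are all of the 35994 genes tested in stalk with this pattern, 0.0222%. Of all genes tested in leaf 1, Nitab4.5_0002328g0050, was at 1 FPKM or more in all Basma libraries and at 0.1 or less in all 15 others, and with a limit of under 0.1 there was none. In leaf 5 genes were under 0.1 FPKM in all 3 Basma libraries and at 1 FPKM or more in all 15 others, 0.0139% of those tested, namely Nitab4.5_0007178g0020, Nitab4.5_0006170g0010, Nitab4.5_0002008g0060, Nitab4.5_0000377g0150 and Nitab4.5_0006870g0060, chosen by this pattern after their values were seen. Their mean FPKM in the other materials was 24.9, 11.6, 3.96, 2.55 and 1.76 in that order. Of these 5, the other 15 libraries were all at 1 FPKM or more for 2 genes in stalk and 3 in root. Those genes were again at 1 FPKM or more in the library labelled Basma 1 and below 1 FPKM in Basma 2 and 3.

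Among the genes called in leaf with all 3 Basma libraries outside the range of the rest, Nitab4.5_0007178g0020 followed Nitab4.5_0006376g0030 as the largest drop. It was at 0, 0.06 and 0.01 FPKM in Basma leaf and between 14.66 and 37.32 elsewhere (difference -4.62 ± 0.192, adjusted p = 4.85e-09, limma). In stalk it was called too, with 0 FPKM in Basma 2 and 3, 6.8 in the library labelled Basma 1 and 5.32 to 18.04 in the others (difference -2.73 ± 0.463, adjusted p = 0.0308). The stalk call of Nitab4.5_0007178g0020 held under 16 of 37 alternatives, and its adjusted p was 0.404 without Basma 2 and 0.495 without Basma 3. The root values were 0 in Basma 2 and 3 and 10.38 in the library labelled Basma 1, and the adjusted p there was 1 with all libraries and 0.000618 without the 6.

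The largest rise by the same rule was that of Nitab4.5_0000476g0260, at 20.35, 31.63 and 18.09 FPKM in Basma leaf against 0 to 11.62 in the other 15 libraries with a median of 3.18. The difference was 2.79 ± 0.466 (adjusted p = 0.00999, limma), and it lost its call when any Basma library was left out (adjusted p from 0.0548 to 0.143). GDH88 was the highest of the others at 6.71 to 11.62 FPKM. The second rise, Nitab4.5_0002328g0050, was close to 0 outside Basma. It was at 3.97, 4 and 3.36 FPKM in Basma leaf and at 0.1 or less in the other 15 leaf libraries (difference 2.22 ± 0.104, adjusted p = 1.54e-08, limma). It was called under all 36 alternatives that tested it, but it passed the filter through the 3 Basma libraries alone. A filter that asks for 9 libraries at 1 FPKM left it out.

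In stalk, the rule named 1 higher gene and 2 lower ones. Nitab4.5_0018006g0010 was at 10.55, 13.38 and 11.54 FPKM in Basma and 2.93 to 7.81 in the others (difference 1.13 ± 0.195, adjusted p = 0.0362, limma). Nitab4.5_0006376g0010, on the scaffold of the gene with the largest drop, was at 0 FPKM in Basma 2 and 3, 2.38 in the library labelled Basma 1 and 2.89 to 11.12 elsewhere (difference -2.21 ± 0.371, adjusted p = 0.0292). Nitab4.5_0010096g0020 was at 0.48, 0.22 and 0.15 FPKM in Basma and 0.52 to 2.26 elsewhere (difference -0.89 ± 0.158, adjusted p = 0.0426, and 0.0503 without the 6 libraries). These 3 stalk calls held under 16, 19 and 12 of 37 alternatives.

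Of the 2 genes called in root, 1 was above every other library and 1 was not. Nitab4.5_0000660g0040 was at 3.08, 6.96 and 5.45 FPKM in Basma root, 2.27 and 2.48 in GDH88 1 and 3, and 0.15 or less in the other 13 libraries (difference 2.32 ± 0.289, adjusted p = 0.0275, limma). Nitab4.5_0001992g0120 was at 18.52, 15.45 and 19.82 FPKM in Basma, but H×B, Va116 and GDH88 lay between 14.84 and 21.7. V×G88 was at 7.39 to 9.07 and Hongda at 0.1 or less (difference 1.05 ± 0.144, adjusted p = 0.0476). The call of Nitab4.5_0001992g0120 thus sets Basma against a mean that Hongda and V×G88 pull down. The 2 calls held under 16 of 36 and 17 of 37 alternatives, and both were lost (adjusted p = 0.0824) with the column number as a replicate block.

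Whether the Basma difference itself varied among tissues was tested in 1 fit over all 54 libraries, in which each difference was still taken within a tissue's own table. The test treats the libraries as independent, although tissues may share plants. Of 42820 genes 38 were called, 0.0887%, and 60 without the 6 libraries. Of those 60, 4 were also among the genes called in every tissue without the 6 libraries. All 4 were higher in Basma in each tissue, so their difference varied in size and not in direction. Nitab4.5_0003151g0070 and Nitab4.5_0000363g0030 were among the 4, and neither was called for variation with all libraries. With all libraries the smallest p among all genes belonged to Nitab4.5_0002328g0050, whose leaf values are given above (adjusted p = 2.46e-11). It was listed at 0 in all 3 Basma stalk libraries and was at 0.34, 2.22 and 0.99 FPKM in Basma root, where the other 15 libraries were at 0.19 or less. Next came Nitab4.5_0000446g0070 (adjusted p = 1.97e-09). It was at 0.24, 0.02 and 0.09 FPKM in Basma leaf against 4.08 to 10.07 in the others, while in stalk and root all 36 libraries were at 0.8 or less. For Nitab4.5_0000806g0160 (adjusted p = 3.58e-08) the stalk stood out, with 58.42, 17.27 and 38.82 FPKM in Basma, 19.11, 40.38 and 76.94 in GDH88 and at most 0.25 elsewhere. In root the same gene was at 0.5 or less in every library. A gene that is not expressed in a tissue can show no difference there, so these genes vary in where they are expressed as well as in the Basma difference.

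The called genes were next placed on the assembly scaffolds. The 194 genes called in any tissue lay on 161 scaffolds, and 59 of them, 30.4%, shared their scaffold with another called gene. Counted for each called gene, 82 of the 2023 other tested genes on its scaffold were called too, 4.05%, against 0.457% of all 42450 genes tested in any tissue. All 3 genes tested on scaffold 0006376 and all 3 tested on scaffold 0006949 were lower in Basma leaf. On scaffold 0006376 the differences were -5.74, -2.63 and -0.97 for Nitab4.5_0006376g0030, Nitab4.5_0006376g0040 and Nitab4.5_0006376g0010. On scaffold 0006949 they were -1.37, -1.86 and -1.49 for Nitab4.5_0006949g0010, Nitab4.5_0006949g0020 and Nitab4.5_0006949g0030. On scaffold 0001740, 3 of 7 genes tested were higher in leaf and the same 3 in stalk (Nitab4.5_0001740g0010, Nitab4.5_0001740g0030 and Nitab4.5_0001740g0070), with leaf differences of at least 2.32. The most called genes on 1 scaffold were 4 of 17 on scaffold 0001863, all lower in leaf by 0.66 to 1.34 (Nitab4.5_0001863g0050, Nitab4.5_0001863g0070, Nitab4.5_0001863g0080 and Nitab4.5_0001863g0160), of which 2 were called without the 6 libraries. The other 2 scaffolds with 3 called genes, 0000070 (19 tested) and 0000188 (24 tested), each held 2 higher and 1 lower. Genes on a scaffold are neighbours and can share reads where they are copies of each other, which was not tested.

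Calls in the GST family were set beside the shares over all genes tested. Of the 59 NtGST genes 43 were tested in leaf, 41 in stalk and 51 in root. The call was made for 1 member in leaf, beside the 0.459% of all genes, and for 0 in stalk and root by limma, where 3 of 41 and 0 of 51 members had an unadjusted p under 0.05, against 4.29% and 1.41% of all genes tested. In root without the 6 libraries 4 of 51 members had an unadjusted p under 0.05, against 926 of all 38399 genes tested, and 0 members were called. With all libraries no member had all 3 Basma libraries outside the range of the other 15 in any tissue. In stalk without the 6 libraries, both remaining Basma libraries lay below all others for NtGSTL3 and NtGSTU8, and neither was called. With all libraries the median difference was -0.07 in leaf against -0.08 over all genes, -0.21 in stalk against 0.02, and 0.07 in root against 0.01. In stalk 34 of the 41 members were lower in Basma than in the mean of the others, among them 23 of 25 of the Tau class, the large plant-specific class of detoxifying GSTs, though none was called. Of all genes tested in stalk 47.3% were lower. Single Va116 stalk libraries were far above the rest for several members. NtGSTU11 was at 143.23 and 224.32 FPKM in Va116 2 and 3 but at 31.66 in Va116 1. NtGSTT2 was at 714.42 in Va116 2 but at 68.21 in Va116 1. Without Va116, 32 of the 41 members and 20 of 25 of the Tau class were lower, against 51.1% of all genes.

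The called member was NtGSTU32 of the Tau class. It was at 3.85, 2.3 and 4.52 FPKM in Basma leaf, and the other 15 libraries ran from 4.17 to 32.8, the lowest of them in Hongda. The groups overlapped slightly. The difference was -1.70 ± 0.345 (adjusted p = 0.046, limma), and the call held under 14 of 37 alternatives. The adjusted p of NtGSTU32 was 0.0612 without the leaf library labelled V×G88 2, and leaving out Basma 1, 2 or 3 gave 0.221, 0.44 and 0.135. In root NtGSTU32 was at 30.21, 55.87 and 82.89 FPKM in Basma, within the range of the others. NtGSTU13 and NtGSTU10, also Tau members, had the smallest p among those higher in leaf, with differences of 0.91 and 0.40 and adjusted p of 0.881 and 1 (limma).

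In stalk the smallest p values belonged to NtGSTU11 and NtGSTF4. NtGSTU11 was at 15.81, 23.81 and 19.01 FPKM in Basma stalk and between 20.21 and 224.32 in the others (difference -1.51 ± 0.487, adjusted p = 0.761, limma). NtGSTF4, of the Phi class that in plants also acts on herbicides, was at 283.8, 161.87 and 193.62 FPKM in Basma stalk and at 46.3 to 237.03 in the others (difference 1.07 ± 0.354, adjusted p = 0.816). NtGSTU1 followed among the lower members (difference -0.92, adjusted p = 1), and the second among the higher ones, NtGSTZ2, differed by 0.15 (adjusted p = 1). In root the smallest p belonged to NtGSTU18 and NtGSTU28 among the higher members, with differences of 0.82 and 1.08, and to NtGSTU31 and NtTCHQD2 among the lower ones, with -0.49 and -0.30 (adjusted p = 1 for each, limma). NtGSTU18 was at 0.68, 1.96 and 13.18 FPKM in Basma root, so that column 3 alone lay above the 0.25 to 3.78 of the others.

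The 6 genes for which the study drew expression profiles had no call in Basma. NtDHAR3, a dehydroascorbate reductase that regenerates ascorbate, was at 32.67, 32.02 and 49.95 FPKM in Basma leaf and 36.6 to 75.15 in the others (difference -0.38 ± 0.185, adjusted p = 1, limma). NtGSTZ1 is of the Zeta class, known for a step in tyrosine breakdown, and was at 54.69, 55.25 and 54.78 FPKM in Basma leaf against 44.23 to 83.97 (difference -0.22 ± 0.135). NtGSTT2, of the Theta class, differed by -0.13 in leaf, -0.21 in stalk and 0.37 in root. NtGSTU40 differed by -0.06, -0.23 and -0.12, with SE between 0.577 and 0.905, so that differences of more than 1 could not be told from 0. NtGSTL1, of the Lambda class, was at 0.84 to 2.47 FPKM in Basma leaf and listed at 0 in all 3 Basma root libraries. NtGSTF4 differed by 0.31 in leaf and 0.50 in root.

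**Figure D5:**
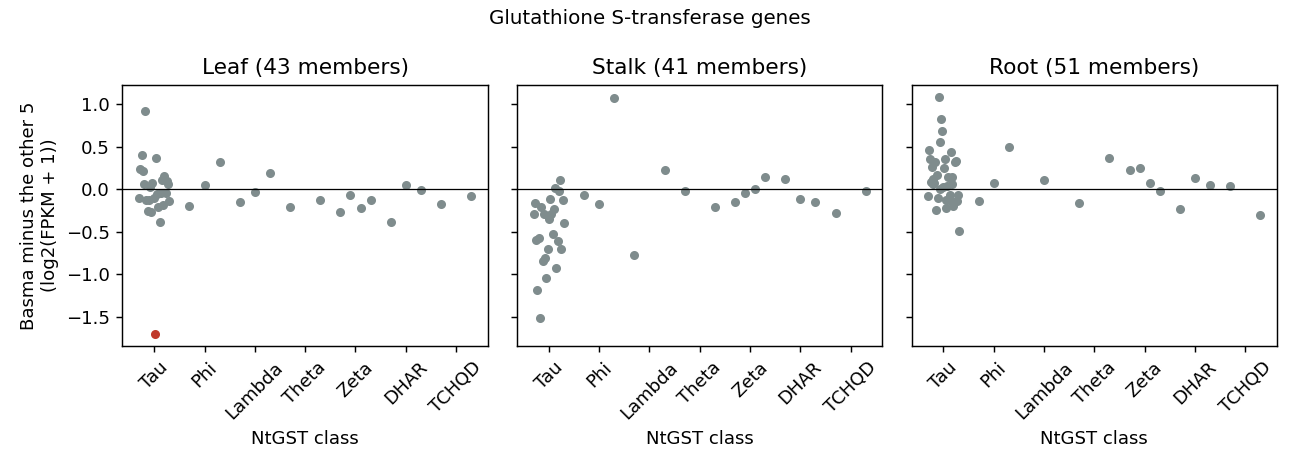
Difference between Basma and the mean of the other 5 materials on log2(FPKM + 1) for the NtGST members tested in each tissue, by class. Each point is a member, and red marks the member called at an adjusted p under 0.05, NtGSTU32 in leaf at -1.70. In stalk 34 of 41 points lie below 0.

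On 3 scaffolds that hold GST members another gene was among those called in every tissue without the 6 libraries. These 3 were picked after the values were seen. Of all genes tested in every tissue 0.137% were called so. The tested genes on scaffolds with GST members were not counted, so the 3 cannot be set against that share. Nitab4.5_0002470g0010, on the scaffold of NtGSTF4, was lower in Basma by 1.89, 1.30 and 2.00 in leaf, stalk and root without the 6 libraries. Nitab4.5_0003978g0060, next to NtTCHQD2, was higher by 1.48, 2.66 and 2.15. Nitab4.5_0000008g0430, on the scaffold that holds NtGSTU10, NtGSTU11 and NtGSTU13, was lower by 2.90, 2.79 and 2.79. All 3 are among the 43 genes called in every tissue without the 6 libraries. With all libraries their adjusted p in leaf was 9.86e-06, 0.00187 and 7.86e-07 (limma). In stalk it was 0.0308, 0.115 and 0.519, and in root none of the 3 was called with all libraries.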

How the data were processed

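Per the labels and the study's methods, RNA was extracted with TRIzol, libraries were made with a TruSeq kit and paired reads were sequenced on an Illumina instrument. HISAT2, StringTie and RSEM are the tools in the submitters' processing notes. Tool versions and the build used for alignment are not stated in those notes, and the identifiers carry the prefix Nitab4.5. The authors deposited 1 table of FPKM per tissue. The unit rests on the study's figure legend, and the sums per library are even enough that the values could also be TPM. Read counts were not used here, so total depth and counting error are not known. A rough estimate from the lowest non-zero values, which its window pulls towards 1, put the relative depth of the Basma libraries between 0.936 and 1.15 of the median library. Libraries are named by material and column number, since the numbers could not be tied to the replicate letters in the labels. The study's methods describe 3 biological replicates with 3 plants sampled in each, but do not state this for the transcriptome separately. Replicates of different tissues may share plants. The p-values measure the spread between these samples only.

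Values were put on the log2(FPKM + 1) scale and fitted with limma (version 3.58.1, under R 4.3.3), with 6 material means per tissue, a trend of variance with level, and the contrast of Basma against the mean of the other 5 material means. On this scale the change of a gene with low values is understated. The tests were tried on simulated data first. The variation among tissues was an F test over all 54 libraries. Genes in the text are the 2 with the largest difference in each direction in each tissue among called genes whose 3 Basma libraries lay outside the range of the others, the 2 others with the smallest p for variation among tissues, the 2 in each direction with the largest mean difference among those called in all tissues, the 6 NtGST genes of the study's figure, and the NtGST members that were called or had the smallest p. Scaffolds are those with the most called genes, ties included. No gene met the rule for all tissues with every library, so it was applied without the 6 libraries, and the second root gene, the 5 genes near 0 in leaf, the scaffolds' members and the 3 genes on scaffolds of GST members were added after their values were seen. The material comparison and the gene lists were chosen with earlier results of these data known. The reference table used for names held none of the identifiers, so no sequences are shown. Alternatives covered the pseudocount, the filter, scaling, the variance model, the samples in the fit and each library in turn. Figures were drawn with matplotlib.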

Additional observations from a re-analysis of the deposited data

Results flagged for a closer look

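For 4 of the named genes the difference between Basma and the other materials varied among tissues, by an F test in limma with Benjamini-Hochberg adjustment over 42820 genes and all 54 libraries. The adjusted p was 2.46e-11 for Nitab4.5_0002328g0050, which was high in Basma leaf and listed at 0 in Basma stalk. It was 1.97e-09 for Nitab4.5_0000446g0070, lower in Basma leaf and under 1 FPKM in every stalk and root library. It was 3.58e-08 for Nitab4.5_0000806g0160, high in the stalk of Basma and GDH88. It was 0.00168 for Nitab4.5_0000660g0040, which was at 3.08 to 6.96 FPKM in Basma root, 1.01 to 3.96 in Basma leaf and at most 0.48 in Basma stalk. In GDH88 leaf Nitab4.5_0000660g0040 was at 2.15, 3.61 and 7.31 FPKM, and the Basma difference in leaf was not called (adjusted p = 0.38, limma). Without the 6 libraries that went against their labels the adjusted p values were 1.74e-11, 2.51e-07, 2.03e-06 and 0.000127 in the same order. Other genes named above were called in that fit and not with all libraries. Among them were Nitab4.5_0003151g0070 (adjusted p = 1.01e-06), Nitab4.5_0000363g0030 (0.000765) and NtGSTU18 (0.0494), by the same F test. The leaf, stalk and root differences were 3.59, 5.26 and 5.45 for the first, and 3.66, 3.35 and 5.15 for the second. NtGSTU18 was under 1 FPKM in every leaf and stalk library. Every group holds 3 libraries, too few for a test of a single library against its group.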

How the results depend on the processing

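Depth was not known, 3 libraries a group leave few degrees of freedom, and the calls rest on the spread among materials' own libraries. With the 15 other libraries taken as 1 group the counts were 29 in leaf, 3 in stalk and 4 in root. Leaving out 1 library at a time gave 71 to 201 calls in leaf, 13 to 83 in stalk, 0 to 45 in root and 0 to 1 NtGST members in leaf. Leaving out 1 column of 1 material in every tissue at once gave 0 to 13 genes called the same way in all 3 tissues. Leaving out a Basma column in every tissue gave 20 to 23 genes whose difference varied among tissues. Without the 6 libraries stalk had 121 calls, root 88, all tissues together 43, NtGST in leaf 0 and the variation among tissues 60. Without the Basma libraries among them root had 45 and all tissues together 14. These last 2 settings were chosen after seeing the data.

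Leaving out a material gave in stalk 15 calls without Hongda, 18 without H×B and 90 without GDH88. In root it gave 0 without Hongda, 0 without V×G88 and 34 without GDH88, and without GDH88 15 genes were called in all tissues. NtGST members called in leaf were 0 without Va116, V×G88 or GDH88, and 0 with no filter, the filter of 9 libraries, quantile normalization, upper quartile scaling or 1 group of others. The pseudocounts 0.1 and 0.01 gave 6 and 10 calls in root and 2 and 1 in all tissues. No filter gave 14 in root and 2 in all tissues, and the filter of 9 libraries 14 in stalk and 0 in root. In leaf the filter of 9 libraries gave 121 calls, 37 of them higher, against 67 higher in the main fit. Limma without the trend gave 1 in root. Array weights gave 185 in stalk, 309 in root, 34 in all tissues and 1 NtGST member in root. All 54 libraries in 1 fit gave 157 in stalk, 56 in root and 20 in all tissues. The cause of these shifts was not tested. Upper quartile scaling and the other choices kept the remaining counts within 1.5 times. The share of higher genes among the leaf calls was 40.6%, and 49.7% after quantile normalization, which moved the median of all leaf genes from -0.08 to -0.01. In root it was 2 of 2 and then 50% of 2.

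With the column number as a replicate block there were 211 calls in leaf, 30 in stalk and 0 in root. The numbers were not taken to pair the samples. Deviations of same-numbered Basma and other libraries correlated at 0.41 on average in leaf, over 0.1 in 12 of 15 pairs, and in column 1 at 0.54 to 0.83, so leaf libraries of a number tended to deviate together. In stalk and root the averages were 0.05 and 0.25, with 7 and 9 of 15 pairs over 0.1.

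For the 43 genes called in all tissues without the 6 libraries, the same count with the remaining libraries in 1 fit was 87, of which 41 were among the 43. Leaving out a Basma column gave 11 to 40 genes, with 11 without Basma 3, of which 10 were among the 43. The pseudocount of 0.1 gave 58 and quantile normalization 49, with 40 and 42 of the 43. No named gene that was called changed its direction under any alternative.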
